A study of Mus musculus with 6 samples.

Results

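The genes described here are ErbB receptors and their ligands, 10 of the 38561 genes counted in each library. They are 3 receptors (Egfr, Erbb2 and Erbb3), 6 ligands of the EGF receptor (Egf, Tgfa, Areg, Ereg, Btc and Hbegf) and 1 neuregulin (Nrg1). They were chosen by name from the gene family, with earlier results of these data known, and each was found in the count tables by its Ensembl gene ID. The study asked what happens in the mouse intestine when the RNA-binding protein RBM47 is removed from the epithelium. Mucosal RNA of the small intestine was sequenced after poly(A) selection in 6 libraries, 3 labelled Rbm47-IKO and 3 labelled wt. By the labels, each library held the pooled RNA of 3 mice, of both sexes, on the C57BL/6J strain and 8 to 12 weeks old, so that no single animal was measured. In the study's Rbm47-IKO mice, a floxed Rbm47 allele is deleted by a constitutive Cre under the villin promoter, which acts in the epithelium of the small and large intestine and leaves Rbm47 in all other cells of the mucosa. The study's methods name floxed mice as controls where the labels say wt.

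ErbB receptors are tyrosine kinases that pair when a ligand binds, and they pass the signal on through adaptors to the RAS-MAPK and PI3K-AKT pathways. EGFR and ERBB4 bind the EGF-like ligands, ERBB3 and ERBB4 bind neuregulins, and ERBB2 has no known ligand of its own and serves as a partner of the others, among them ERBB3, whose own kinase is weak. Most ligands are made as membrane-bound precursors and are released by proteases such as ADAM17. In the intestine this family is known for its part in crypt proliferation and in repair after injury, and ligands come from epithelial cells, from Paneth cells, from stroma and from immune cells.

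Rbm47 was not lower in the libraries labelled Rbm47-IKO. Its level was 602.7, 624.6 and 619.8 CPM (counts scaled to the library size, which the TMM method of edgeR adjusts) in those libraries and 459.8, 449.9 and 472.1 CPM in the wt libraries. All 3 libraries labelled Rbm47-IKO were thus above all 3 wt libraries, with a log2 fold change of 0.42 ± 0.10 (SE) and an adjusted p of 0.0751 by edgeR's quasi-likelihood test over all genes. It passed as higher with DESeq2 (adjusted p = 0.00105) and with edgeR on library sizes alone (adjusted p = 0.0473). Counts are per gene and not per exon, and the exons that the floxed allele loses are not given in the sources used here. Because the targeted gene goes against the label, every direction below is that of the labels, and the 3 libraries are called the libraries labelled IKO.

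Library totals ran from 31560320 to 38951830 counts, with no split between genotypes. Of 16425 genes tested, 443 passed an adjusted p of 0.05 or less, which is 2.7% (1.45% higher and 1.25% lower in the libraries labelled IKO). Epithelial markers were abundant in all libraries, between 11001 and 13908.7 CPM summed over 5 genes, and the colon markers Car1 and Aqp8 were at or near 0 counts. The summed level of 6 smooth muscle genes stood apart in 1 library of each genotype. It was 3302 CPM in Rbm47-IKO replicate 3 and 2803 CPM in wt replicate 2, against 90.7 to 585.7 CPM in the other 4 libraries. The sexes were not evenly spread either. Xist, which female cells express, had 37 and 25 counts in wt replicates 1 and 3, against 5694 in wt replicate 2 and 1317 to 9777 in the libraries labelled IKO, which goes against a pool of both sexes in those 2 wt libraries. The summed level of 4 Y-linked genes was 215.4, 87.9 and 220.3 CPM in wt and 138.6, 53.0 and 143.7 CPM in the libraries labelled IKO. The called genes are given below also without the 2 libraries rich in smooth muscle transcripts, a fit whose wt libraries are replicates 1 and 3, and with the Y-linked sum as a covariate. The p-values measure the spread between pools of mice.

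The coding sequence of Erbb2 is a place where the study ran a qPCR assay of its own, so these primers mark where in the transcript that separate measurement was made. They are shown 5′ to 3′ and were matched to a GENCODE M21 transcript on GRCm38. The forward primer lies at chr11:98427326-98427344 and the reverse one at chr11:98427366-98427390, both in coding exon 12, with an amplicon of 65 bases.
Erbb2 forward: ggcagtggattggctctca
Erbb2 reverse: tcccaaggtacagtgtttacaaagc

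Areg and Ereg, which encode the ligands amphiregulin and epiregulin, were the members that rose. Areg is a low-affinity ligand of EGFR known from epithelial repair, and it is also made by mast cells and lymphoid cells. Areg (ENSMUSG00000029378, chr5:91139615-91148432, plus strand) had 24.6, 29.4 and 21.5 CPM in the libraries labelled IKO and 7.35, 9.09 and 9.17 CPM in the wt libraries, from 250 to 1112 counts per library. The lowest library labelled IKO was more than double the highest wt library, and the groups did not overlap. The mean was 25.1 ± 3.97 CPM (SD, n = 3) against 8.54 ± 1.03 CPM (SD, n = 3), a ratio of 2.95 and a log2 fold change of 1.56 ± 0.16 (SE, edgeR adjusted p = 0.00875).

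Ereg (ENSMUSG00000029377, chr5:91074617-91093649, plus strand), a ligand of EGFR and ERBB4, had 14.3, 14.4 and 16.5 CPM in the libraries labelled IKO and 8.47, 8.09 and 7.41 CPM in the wt libraries. These groups did not overlap either. The mean was 15.1 ± 1.26 CPM (SD, n = 3) against 7.99 ± 0.538 CPM (SD, n = 3), a ratio of 1.88 and a log2 fold change of 0.91 ± 0.14 (SE, edgeR adjusted p = 0.0209). So 2 of 10 members passed the test, both higher, where 1.45% of all tested genes passed in that direction. The members were chosen with earlier results of these data known, so this comparison is a description and not a test. Without the 2 libraries rich in smooth muscle transcripts, Areg reached 1.70 on the log2 scale (edgeR adjusted p = 0.00965) and Ereg 0.84, which no longer passed (edgeR adjusted p = 0.0570). With the Y-linked sum as a covariate, Areg had 1.43 (edgeR adjusted p = 0.0399) and Ereg 0.93 (edgeR adjusted p = 0.0858). The replicate numbers as a block gave 1.55 for Areg (edgeR adjusted p = 0.0347) and 0.91 for Ereg (edgeR adjusted p = 0.0712).

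The calls of both genes depended on single libraries, while their size did not. Leaving out each library in turn gave Areg log2 fold changes of 1.43 to 1.66 and edgeR adjusted p of 0.0143 to 0.0685, and the call was lost without Rbm47-IKO replicate 1 (adjusted p = 0.0509), Rbm47-IKO replicate 2 (adjusted p = 0.0685) or wt replicate 3 (adjusted p = 0.0504). Ereg had log2 fold changes of 0.84 to 0.96 and edgeR adjusted p of 0.0357 to 0.131 in the same 6 fits, and it passed only without wt replicate 1 (adjusted p = 0.0393) or wt replicate 2 (adjusted p = 0.0357).

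Among markers of cells that make these ligands or sit beside them, some sums followed the genotype labels. The sum of the 4 goblet cell genes was 19787 to 22514 CPM in the libraries labelled IKO and 14889 to 17220 CPM in wt, and the sum of the 3 enteroendocrine genes was 72.9 to 93.2 CPM against 101.7 to 125.4 CPM. Gene by gene, Muc2 and Tff3 of the goblet list and all 3 enteroendocrine genes overlapped between genotypes. The sum of the 6 enterocyte genes was 25166 to 26333 CPM against 26346 to 30356 CPM, but its genes did not go together. Apoa4 and Sis lay below wt without overlap, Fabp2 lay above it without overlap (8203 against 5774 CPM on average), and 4 of the 6 genes had a fitted change above 0. The 4 mast cell genes summed to 21.8 to 23.1 CPM against 15.3 to 22.7 CPM, and the 4 genes of T cells and innate lymphoid cells to 12.2 to 19.5 CPM against 8.50 to 18.7 CPM, both with overlap. The 4 Paneth cell genes summed to 370.3 to 659.6 CPM against 404.4 to 1538 CPM, with overlap and with all 4 fitted lower. When the gene with the lowest edgeR adjusted p was taken from each marker list, the leading ones were Apoa4 of enterocytes (log2 fold change −1.01, adjusted p = 0.0802), Olfm4 of crypt stem cells (−1.65, adjusted p = 0.0974), Pdx1 of the duodenum (1.79, adjusted p = 0.110), Clca1 of goblet cells (0.60, adjusted p = 0.123), Chgb of enteroendocrine cells (−0.60, adjusted p = 0.178) and Fabp6 of the ileum (1.93, adjusted p = 0.201). None of them passed, and their part in the rise of Areg and Ereg was not tested. Nor do all of them stand for their lists. Of the 4 crypt stem genes, 2 had a fitted change above 0 (Lgr5 0.18 and Smoc2 0.29). Of the 2 ileum genes, Slc10a2 had a log2 fold change of −0.47, against the direction of Fabp6. The sums of both lists overlapped between genotypes. In RNA from whole mucosa, fewer cells of a type and less RNA per cell cannot be told apart.

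**Figure D1:**
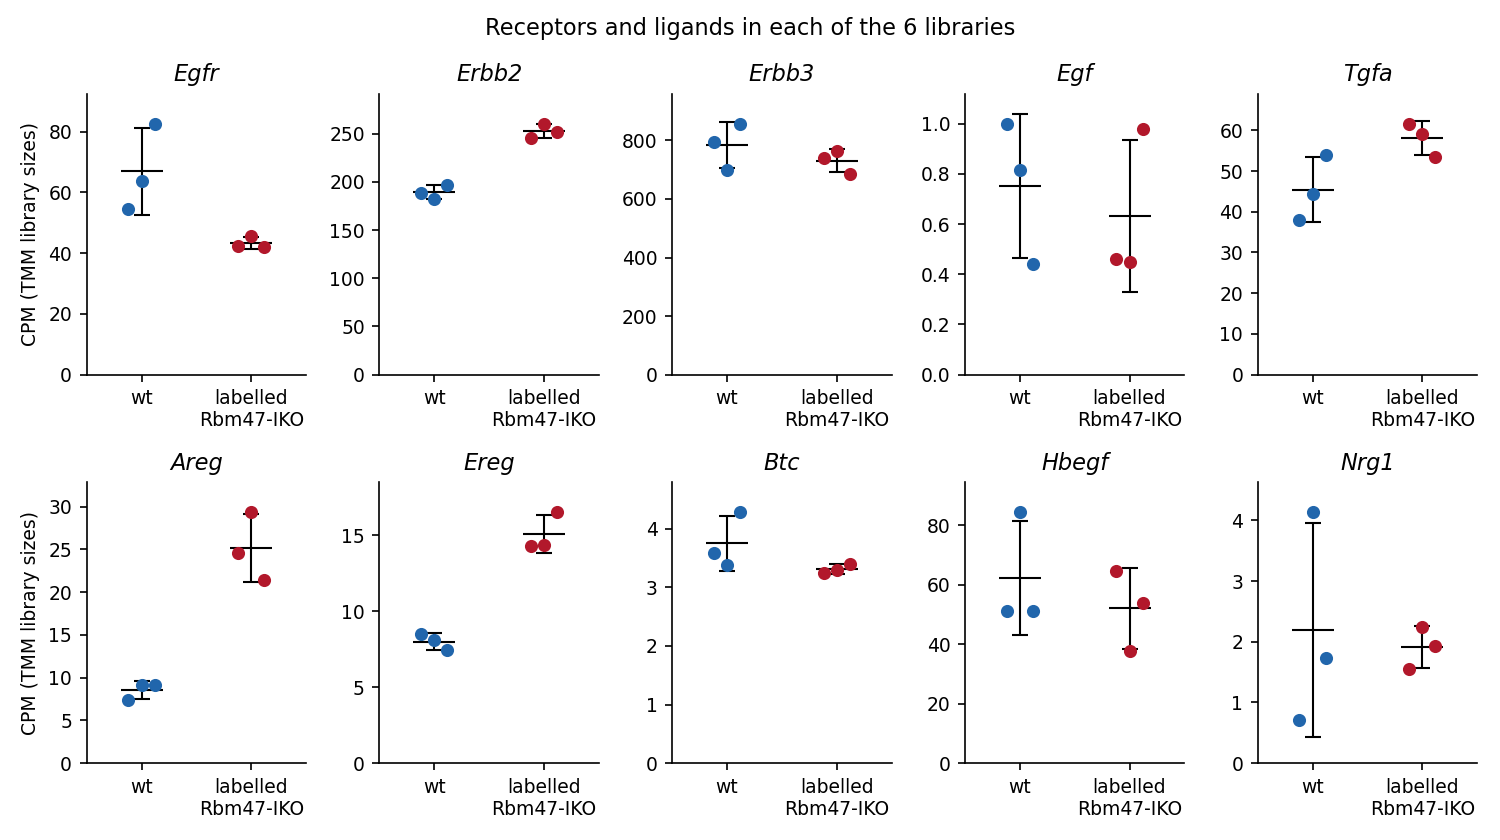
Level of each receptor and ligand in CPM with TMM library sizes (vertical axes, linear from 0), with 1 point per library, a horizontal bar for the mean and whiskers for the SD over 3 libraries. Areg and Ereg lie above wt in all 3 libraries labelled IKO and passed the test, Erbb2 lies above and Egfr below without passing it, and the other members overlap.

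The other 4 ligands of the EGF receptor did not pass the test. Tgfa (ENSMUSG00000029999, chr6:86195251-86275449), the ligand TGF-alpha, which epithelial cells make for themselves, had 61.6, 59.2 and 53.4 CPM in the libraries labelled IKO and 38.0, 44.4 and 53.9 CPM in wt. Only wt replicate 3 reached the level of the libraries labelled IKO, and the log2 fold change was 0.35 ± 0.14 (SE, edgeR adjusted p = 0.271).

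Hbegf (ENSMUSG00000024486, chr18:36504929-36515805), the heparin-binding ligand of EGFR and ERBB4, had 64.8, 37.7 and 53.9 CPM in the libraries labelled IKO and 51.1, 84.4 and 51.2 CPM in wt. The highest value was that of wt replicate 2, and the log2 fold change of −0.26 ± 0.26 (SE, edgeR adjusted p = 0.714) became 0.03 without that library. Btc (ENSMUSG00000082361, chr5:91357261-91402994), betacellulin, had 3.24, 3.30 and 3.40 CPM against 3.59, 3.37 and 4.28 CPM, a log2 fold change of −0.18 ± 0.20 (SE, edgeR adjusted p = 0.760).

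Egf (ENSMUSG00000028017, chr3:129677575-129755322), the founding ligand of the family, which salivary gland and kidney make in quantity, was scarce. It had 16, 17 and 32 counts in the libraries labelled IKO and 34, 31 and 16 counts in wt, which is 0.439 to 1.0 CPM. The groups overlapped fully (log2 fold change −0.26 ± 0.47, SE, edgeR adjusted p = 0.867), and at this depth the interval leaves room for a change of either sign.

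Nrg1 (ENSMUSG00000062991, chr8:31818028-31918203), neuregulin 1, a ligand of ERBB3 and ERBB4 that stromal cells are known to make in the intestine, was the most uneven member. It had 1.56, 2.24 and 1.93 CPM in the libraries labelled IKO and 0.706, 4.14 and 1.73 CPM in wt. The wt libraries held both the lowest and the highest value, 24 and 157 counts. The highest was wt replicate 2, the wt library with the most smooth muscle and fibroblast transcripts (fibroblast sum 394.3 CPM, against 81.8 and 133.9 CPM in the other wt libraries), and the part of those cells in it was not tested. The log2 fold change was −0.20 ± 0.57 (SE, edgeR adjusted p = 0.923) with all libraries and 0.65 without wt replicate 2 (edgeR adjusted p = 0.419).

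Neither Erbb2 nor Egfr passed the test, although neither overlapped between genotypes. Erbb2 had the higher values in the libraries labelled IKO and Egfr the lower ones. Erbb2 (ENSMUSG00000062312, chr11:98412470-98437716, plus strand), the partner receptor, had 245.6, 260.5 and 252.1 CPM in the libraries labelled IKO and 188.9, 182.0 and 196.6 CPM in wt. The gap between the groups was wider than the spread within either of them. The mean was 252.7 ± 7.52 CPM (SD, n = 3) against 189.1 ± 7.32 CPM (SD, n = 3), a ratio of 1.34 and a log2 fold change of 0.42 ± 0.10 (SE, edgeR adjusted p = 0.0700).

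Egfr (ENSMUSG00000020122, chr11:16752203-16918158, plus strand), the receptor of the EGF-like ligands, had 42.5, 45.5 and 42.0 CPM in the libraries labelled IKO and 54.4, 63.9 and 82.7 CPM in wt. The libraries labelled IKO lay close together and the wt libraries were spread over a wider range, all above them. The log2 fold change was −0.63 ± 0.16 (SE, edgeR adjusted p = 0.0878). Without the 2 libraries rich in smooth muscle transcripts it was −0.65 for Egfr (edgeR adjusted p = 0.144) and 0.38 for Erbb2 (edgeR adjusted p = 0.181). DESeq2, which called 8.39% of the genes it gave an adjusted p, called both, with adjusted p of 0.0119 for Egfr and 0.00315 for Erbb2.

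Erbb3 (ENSMUSG00000018166, chr10:128567523-128589652), the neuregulin receptor, had 741.2, 763.4 and 686.6 CPM in the libraries labelled IKO and 795.0, 700.3 and 857.2 CPM in wt. The groups overlapped, with a log2 fold change of −0.10 ± 0.12 (SE, edgeR adjusted p = 0.775). In all, 3 members lay above and 1 below wt without overlap, where 11.7% of tested genes lay above and 11.6% below. This too is a description, given how the members were chosen.

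Reads of overlapping genes may bear on these receptors, since use of strand in the counting is not given in the sources used here. The antisense gene Egfros lies inside Egfr (chr11:16815431-16830702) and had 86, 95 and 98 counts in the libraries labelled IKO and 170, 126 and 131 counts in wt, beside 1372 to 3013 counts for Egfr. Mien1 (chr11:98437708-98438991), on the opposite strand, shares only the last bases of Erbb2, chr11:98437708-98437716. Over its whole length it had 397 to 568 counts in the libraries labelled IKO and 340 to 490 counts in wt, beside 6422 to 9868 counts for Erbb2. Reads from the shared bases cannot be assigned to 1 of the genes without strand.

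To compare levels between genes, CPM was divided by the length of each gene's merged exons in kilobases as the tables give it. On this scale Erbb3 had the highest level of the receptors, with 130.3 ± 13.1 CPM per kb (SD, n = 3) in wt, followed by Erbb2 with 36.3 ± 1.41 and Egfr with 5.92 ± 1.27. The ranges of the receptors did not meet in either genotype. In wt the ligands were ordered Hbegf (26.2 ± 8.09 CPM per kb), Tgfa (10.7 ± 1.90), Areg (7.12 ± 0.855), Ereg (1.93 ± 0.130), Btc (1.30 ± 0.165), Nrg1 (1.04 ± 0.838) and Egf (0.158 ± 0.0601), all as mean and SD of 3 libraries. Nrg1 ranged from 0.336 to 1.97 CPM per kb in wt and could not be placed against Ereg or Btc, whereas the other neighbours did not overlap. The exons counted for Nrg1 (2103 bases) leave out the sites of its 3′ untranslated region that are read below, so reads from there are not in its level.

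In the libraries labelled IKO the order at the top of the ligands was another one. Hbegf had 22.0 ± 5.75 CPM per kb (SD, n = 3) and Areg 21.0 ± 3.31 (SD, n = 3), with ranges of 15.9 to 27.3 and 17.9 to 24.5 that overlapped, and Tgfa followed with 13.7 ± 0.998 (SD, n = 3), below every value of Areg. Ereg, at 3.64 ± 0.304 CPM per kb (SD, n = 3), overlapped the level of Egfr, at 3.83 ± 0.168 (SD, n = 3).

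**Figure D2:**
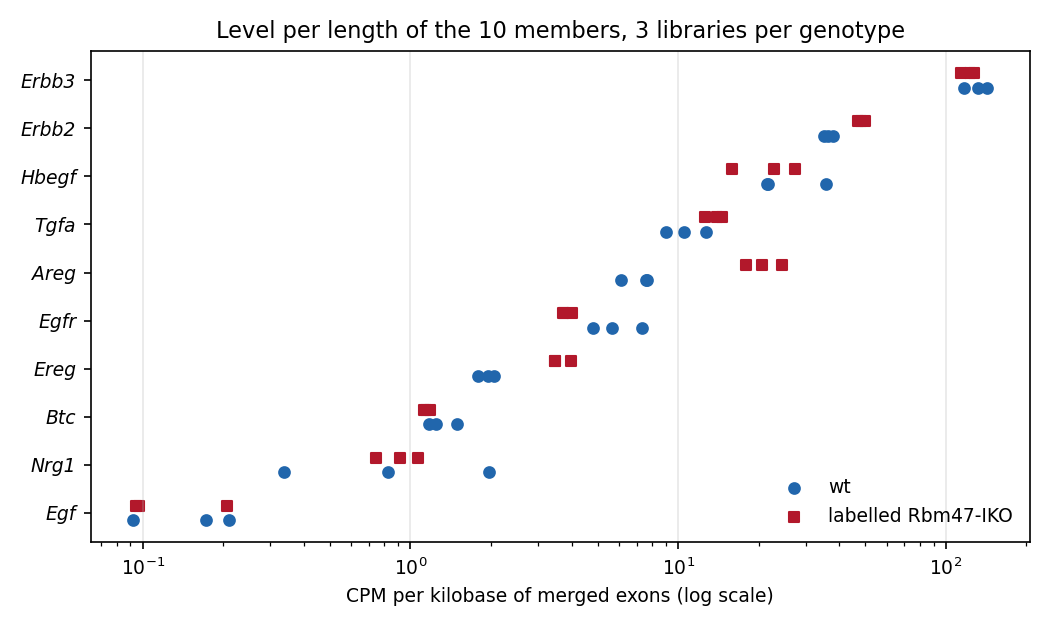
Level of each member in CPM per kilobase of merged exons (horizontal axis, log scale), with 1 point per library, circles for wt and squares for the libraries labelled IKO. Genes are ordered by their mean in wt, and Areg lies below Tgfa in wt and above it in the libraries labelled IKO.

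The make-up of the family follows from these levels and is given without a test. Of the summed level per kilobase of the 7 ligands, Areg made up 33.7 ± 6.09% (SD, n = 3, range 30.1 to 40.7%) in the libraries labelled IKO and 14.9 ± 1.86% (SD, n = 3, range 12.9 to 16.6%) in wt. Hbegf made up 34.9 ± 7.47% against 53.4 ± 6.82%, Tgfa 22.0 ± 1.11% against 22.5 ± 4.91%, and Ereg 5.86 ± 0.806% against 4.08 ± 0.886% (SD, n = 3 each). The ratio of Areg to Hbegf was 1.03 ± 0.447 (SD, n = 3) in the libraries labelled IKO and 0.284 ± 0.0705 (SD, n = 3) in wt.

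The summed ligand level was 62.5 ± 4.62 CPM per kb (SD, n = 3) against 48.5 ± 9.43 (SD, n = 3), and its range of 59.5 to 67.8 in the libraries labelled IKO lay just above that of 40.5 to 58.9 in wt. The summed receptor level was nearly the same, with 173.7 ± 7.35 against 172.6 ± 15.3 CPM per kb (SD, n = 3 each). Within it, Erbb2 held 27.9 ± 1.05% against 21.1 ± 1.07% and Egfr 2.20 ± 0.0413% against 3.42 ± 0.579% (SD, n = 3 each). The level of Erbb2 relative to Egfr was 12.7 ± 0.321 (SD, n = 3, range 12.4 to 13.0) in the libraries labelled IKO and 6.30 ± 1.19 (SD, n = 3, range 5.17 to 7.54) in wt.

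**Figure D3:**
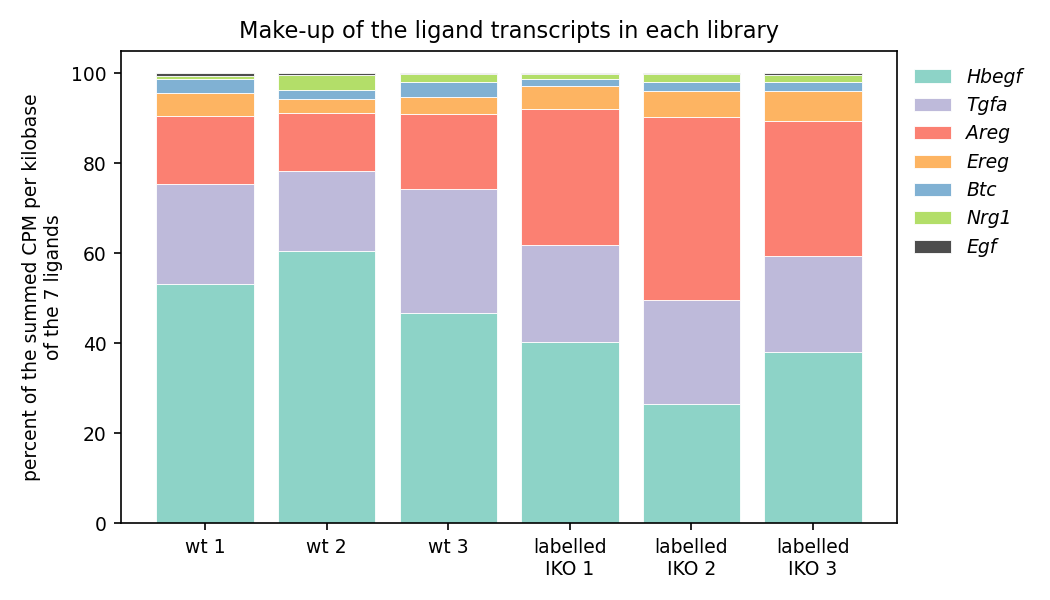
Share of each of the 7 ligands in their summed CPM per kilobase (vertical axis, percent, from 0), with 1 stacked bar per library. Areg takes 30.1 to 40.7% in the libraries labelled IKO and 12.9 to 16.6% in wt, and Hbegf 26.4 to 40.2% and 46.8 to 60.4%.

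Areg and Ereg lie next to each other in a cluster of ligand genes on chromosome 5, in the order Epgn, Ereg, Areg, Btc, with the small RNA gene Gm23092 (0 counts in every library) before Btc. Epgn, epigen, another ligand of EGFR, had 9, 6 and 4 counts in the libraries labelled IKO and 0, 2 and 1 counts in wt. The wt libraries were at or under the 3 counts taken as the smallest level that can be told from none, and the libraries labelled IKO were above them without overlap, but the gene was too low to be tested. Of the 3 genes of the cluster that were tested, Ereg and Areg thus rose, while Btc at its end, read from the opposite strand, had a fitted change of −0.18.

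The genes beside Erbb2 on chromosome 11 were also read. Pgap3 (chr11:98388677-98400490), which acts on GPI anchors and starts upstream of Erbb2 on the other strand, had 32.6, 31.9 and 29.5 CPM in the libraries labelled IKO and 18.7, 22.4 and 23.3 CPM in wt. It did not overlap between genotypes and did not pass the test (log2 fold change 0.54 ± 0.12, SE, edgeR adjusted p = 0.0635). Pgap3 passed with DESeq2 (adjusted p = 0.0114) and with edgeR on library sizes alone (adjusted p = 0.0407). It also passed edgeR with the filter of 1 CPM in 3 libraries (adjusted p = 0.0461). The fitted log2 change was 0.29 ± 0.16 (SE, edgeR adjusted p = 0.429) for Mien1, downstream, and 0.12 ± 0.10 (SE, edgeR adjusted p = 0.633) for Grb7, an adaptor that binds ErbB receptors. Pnmt had at most 1 count in any library.

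Promoter windows of 250 bases before the annotated start were available from RefSeq on GRCm38.p6 for Egfr, Erbb2, Egf, Tgfa, Areg and Btc, which is 6 of the 10 members. Those of Areg, which rose, and of its cluster neighbour Btc, which did not pass the test, are shown 5′ to 3′ on the strand of the gene. The Areg window is chr5:91139349-91139598 on the plus strand, and the Btc window is chr5:91402995-91403244 on the minus strand. Capitals mark matches to the cAMP response element (TGACGTCA) and to the TATA box (TATAAA).
Areg: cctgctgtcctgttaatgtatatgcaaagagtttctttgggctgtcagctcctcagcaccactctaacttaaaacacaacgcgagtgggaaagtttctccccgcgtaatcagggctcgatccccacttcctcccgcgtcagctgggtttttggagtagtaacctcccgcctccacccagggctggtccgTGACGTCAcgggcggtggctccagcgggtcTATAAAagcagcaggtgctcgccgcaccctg
Btc: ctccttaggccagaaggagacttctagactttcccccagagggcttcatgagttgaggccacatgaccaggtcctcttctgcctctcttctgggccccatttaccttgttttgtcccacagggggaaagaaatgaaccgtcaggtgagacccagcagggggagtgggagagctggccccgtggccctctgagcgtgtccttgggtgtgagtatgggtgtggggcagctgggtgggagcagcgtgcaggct

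Both strands were searched for TGACGTCA, its shorter form TGACGT, the AP-1 site TGANTCA, the antioxidant response element core TGACNNNGC, TATAAA and the GC box GGGCGG. The Areg window held TGACGTCA from 61 bases before the start, which includes 2 matches of the shorter form, TATAAA from 31 bases before it and GGGCGG from 52 bases before it. TGACGTCA is in 1.55% of 32851 RefSeq windows of the same length, TATAAA in 12.4% and GGGCGG in 32.7%. The Btc, Erbb2 and 2 Egf windows held none of these letters, and those of Egfr and Tgfa held only the GC box, once and 2 times. TGACGT is in 6.47% of all windows, TGANTCA in 6.75% and TGACNNNGC in 10.2%. The windows of Areg and Btc were 57.2% and 59.6% G or C, those of Egfr, Erbb2 and Tgfa 60.8%, 66.0% and 69.2%, and those of Egf 50.4% and 52.0%, against a median of 52.4% over all windows. A match is a run of letters and not a measured binding site.

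The 3′ untranslated region (UTR) was read for AUUUA, the core of AU-rich elements, which are known to shorten the life of messages of cytokines and growth factors. In the longest 3′ UTR that GENCODE M21 gives each gene, Areg had 4 AUUUA in 253 bases, 15.8 per kb, which is more per kb than in 99.9% of 14131 genes. That UTR is short, with 9.5% of genes having a shorter one and a median of 1321 bases, and a short length raises a value per kb. Ereg had 9 in 3501 bases, 2.57 per kb, which is more than in 77.7% of genes. The 4 sites of Areg lie within 1 short stretch, at bases 193, 197, 204 and 215 of the UTR. The first and the last of them and 1 of Ereg are shown 5′ to 3′ as RNA with AUUUA in capitals. They lie at chr5:91148362-91148386 and chr5:91148384-91148408 for Areg and at chr5:91090503-91090527 for Ereg, all on the plus strand of GRCm38.
Areg first site: guuguaaauaAUUUAuuuaauauuu
Areg last site: uuuaaguguuAUUUAuuuuauagcu
Ereg: ugcaucaguaAUUUAuuuuuuucuu

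The members that did not pass the test also carried such sites. Hbegf had 4 in 1456 bases (2.75 per kb), Nrg1 9 in 3477 bases (2.59 per kb), Erbb3 4 in 1845 bases (2.17 per kb), Btc 4 in 2069 bases (1.93 per kb), Egfr 12 in 6303 bases (1.90 per kb), Egf 6 in 3172 bases (1.89 per kb) and Tgfa 4 in 3764 bases (1.06 per kb). Erbb2 had none in 1048 bases. The sites of Nrg1 lie at chr8:31814557-31817963, outside the span on which its reads were counted (chr8:31818028-31918203). The last site of Tgfa (chr6:86275504-86275528) also lies outside its counted span. Over all genes the median was 1.18 per kb and 69.7% had at least 1 site, beside 9 of the 10 members. Message stability was not measured in these libraries.

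The remaining receptors and ligands of the family were scarce. Erbb4, the fourth receptor, had 0 counts in all 6 libraries, which leaves room for up to 3 counts in each. Nrg3 had 0, 2 and 8 counts against 1, 11 and 0 counts and was not tested. Nrg2 had 13, 29 and 31 counts in the libraries labelled IKO and 15, 36 and 28 in wt (log2 fold change −0.05 ± 0.46, SE, edgeR adjusted p = 0.977). Nrg4, a ligand of ERBB4, had 4.01, 4.09 and 7.44 CPM against 7.71, 6.80 and 6.23 CPM, and Rbm47-IKO replicate 3 lay among the wt libraries (log2 fold change −0.42 ± 0.27, SE, edgeR adjusted p = 0.527).

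Of 69 other genes of the ErbB pathway in 7 lists, 65 were tested, 1 rose and none fell, where 2.7% of all genes passed. The 1 that rose was Cbl (ENSMUSG00000034342, chr9:44149262-44234046), the ubiquitin ligase that marks activated EGFR for breakdown. It had 93.3, 99.1 and 99.8 CPM in the libraries labelled IKO and 60.5, 49.4 and 60.9 CPM in wt. The groups were far apart, with a log2 fold change of 0.78 ± 0.11 (SE, edgeR adjusted p = 0.0188). The call was lost without Rbm47-IKO replicate 1 (adjusted p = 0.0896), 2 (adjusted p = 0.131) or 3 (adjusted p = 0.0715) or wt replicate 3 (adjusted p = 0.0621), with log2 fold changes of 0.76 to 0.83 in these edgeR fits, and with only the 4 libraries of lower smooth muscle sums (0.66, adjusted p = 0.0580) or the Y-linked sum as a covariate (0.84, adjusted p = 0.0690). Cbl was also lost with the replicate numbers as a block (0.78, edgeR adjusted p = 0.0660). Across the 65 genes, 12 lay above wt in all 3 libraries labelled IKO and 3 below, where 23.3% of all genes did not overlap in either direction. A fitted change above 0 was found for 44 of the 65, with a median of 0.12, against 49.3% and a median of −0.01 over all genes tested. The lists were chosen with earlier results of these data known, so these comparisons with all genes are descriptions. Without adjustment, 11 of the 65 had an edgeR p under 0.05, a share like the 16.8% of all genes. DESeq2 called 6, namely Cbl, Adam17, Rhbdf2, Rnf41, Mapk3 and Spred2, beside 8.39% of all genes.

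In the list of genes that restrain the receptors, 8 of 10 had a fitted change above 0 (median 0.18), and Cbl was the 1 that passed. Rnf41, a ubiquitin ligase of ERBB3 chosen for naming after its values were seen, had 48.6, 52.4 and 54.5 CPM against 40.6, 36.5 and 40.5 CPM (log2 fold change 0.40 ± 0.10, SE, edgeR adjusted p = 0.0857).

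In the list of ligand shedding, none of 8 genes passed in the main edgeR fit. That fit used all 6 libraries, TMM, the low count filter filterByExpr and no covariate. In it 3 genes had an unadjusted p under 0.05 (16.8% of all genes) and the median was 0.08. Adam17, the main sheddase of amphiregulin, had 38.0, 32.6 and 34.4 CPM in the libraries labelled IKO and 54.6, 44.4 and 56.0 CPM in wt (log2 fold change −0.56 ± 0.12, SE, edgeR adjusted p = 0.0639). Rhbdf2, which encodes iRhom2, a carrier of ADAM17 to the cell surface, had 39.7, 37.9 and 39.7 CPM against 27.4, 28.8 and 30.4 CPM (log2 fold change 0.44 ± 0.10, SE, edgeR adjusted p = 0.0597). Neither passed the test, although neither overlapped between genotypes. Without the 2 libraries rich in smooth muscle transcripts, the log2 fold change was −0.66 for Adam17 (edgeR adjusted p = 0.0679) and 0.42 for Rhbdf2 (edgeR adjusted p = 0.162). Both passed edgeR with library sizes alone (adjusted p = 0.0478 and 0.0457), and Adam17 also without wt replicate 2 (adjusted p = 0.0396) and Rhbdf2 with the filter of 1 CPM in 3 libraries (adjusted p = 0.0451).

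The relays inside the cell showed no call by edgeR with all 6 libraries and TMM, and Mapk3 passed with library sizes alone (adjusted p = 0.0469). Of 9 adaptors, none had an unadjusted p under 0.05 and the median was −0.04, and Sos2, an activator of RAS, had the largest change (log2 fold change −0.29 ± 0.13, SE, edgeR adjusted p = 0.306). Of 10 genes of the RAS-MAPK relay, 2 had an unadjusted p under 0.05 and the median was 0.04. Mapk3, the kinase ERK1, had 211.8, 242.8 and 214.1 CPM against 156.3, 165.1 and 175.8 CPM, without overlap (log2 fold change 0.43 ± 0.11, SE, edgeR adjusted p = 0.0898). Of 8 genes of the PI3K-AKT relay, 1 had an unadjusted p under 0.05 and the median was −0.01. That was Pik3r1, the regulatory subunit of PI3K, with 116.1, 106.6 and 113.6 CPM against 151.9, 117.2 and 140.8 CPM (log2 fold change −0.29 ± 0.12, SE, edgeR adjusted p = 0.293).

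In the list of early response and feedback genes, which ErbB signalling is known to induce, none of 18 passed in the main edgeR fit. In that fit 2 of the 18 had an unadjusted p under 0.05 (16.8% of all genes). A fitted change above 0 was found for 17, with a median of 0.32. Of the 18, 15 overlapped between genotypes and 3 lay above wt (11.7% of all genes), and 15 had their lowest level in wt replicate 1. Without that library 15 had a fitted change above 0 and the median was 0.16, and without wt replicate 2 all 18 did and the median was 0.51. Spred2, an inhibitor of RAS-MAPK signalling, had 42.2, 41.6 and 38.7 CPM against 30.0, 29.4 and 30.9 CPM (log2 fold change 0.44 ± 0.09, SE, edgeR adjusted p = 0.0570), and it passed with library sizes alone (adjusted p = 0.0387) and with the filter of 1 CPM in 3 libraries (adjusted p = 0.0392). Phlda1 had 19.6, 23.6 and 27.8 CPM against 3.06, 17.0 and 6.39 CPM. Its groups did not overlap, but wt replicate 2 lay far above the other wt libraries (log2 fold change 1.42 ± 0.54, SE, edgeR adjusted p = 0.234). Without that library the log2 fold change was 2.32 and passed (edgeR adjusted p = 0.0227), and without wt replicate 1 it was 1.02. Phlda1 also passed with the smooth muscle sum as a covariate (1.36, edgeR adjusted p = 0.0120). The same held with only the 4 libraries of lower smooth muscle sums (2.18, edgeR adjusted p = 0.0238).

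**Figure D4:**
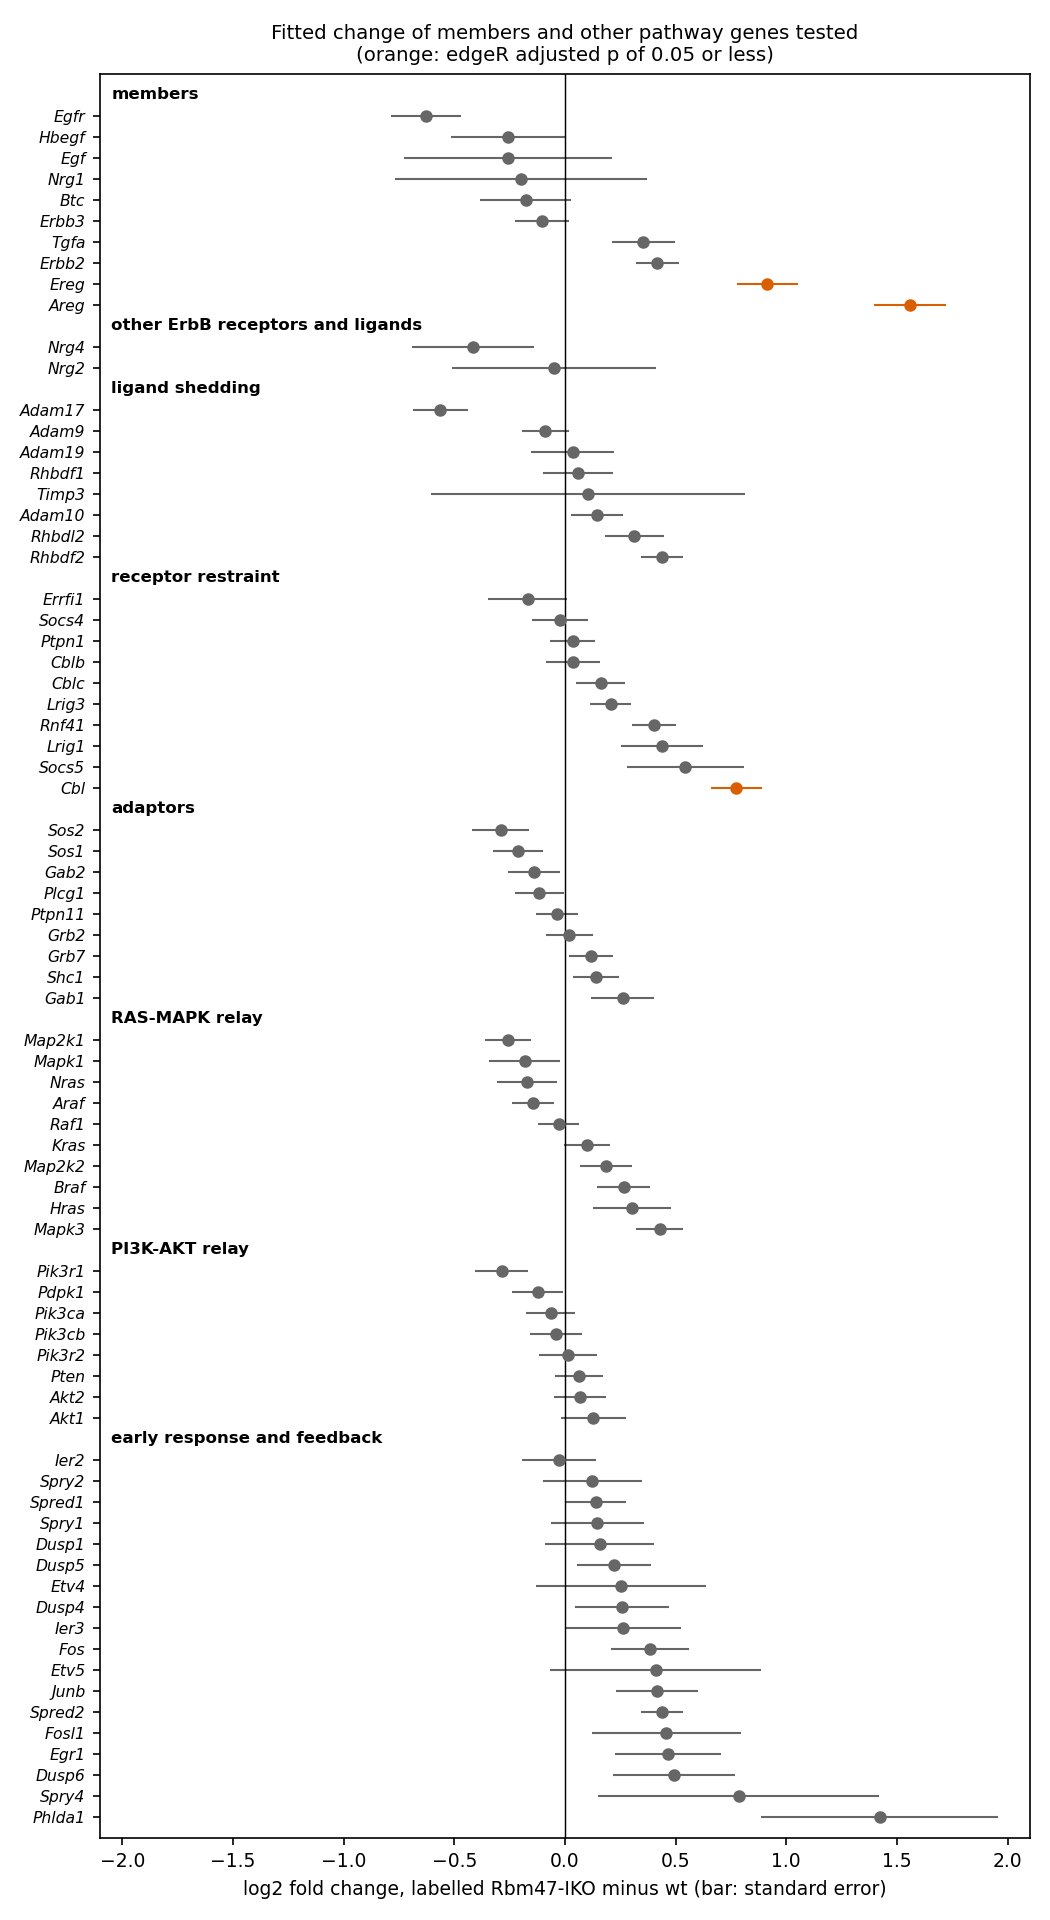
Fitted log2 fold change of the 10 members and of the 65 tested pathway genes, grouped by list (horizontal axis, libraries labelled IKO minus wt, bars for the SE), with orange points for an edgeR adjusted p of 0.05 or less. Areg at 1.56, Ereg at 0.91 and Cbl at 0.78 are orange, and 17 of the 18 early response and feedback genes lie right of 0, although 15 of the 18 overlap between genotypes.

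The genes whose log2 CPM followed Areg most closely over the 6 libraries, among genes with a symbol, were Ddit4l, Llgl1 and Jup, each with a Pearson's r of 0.998. The 6 points share the 2 genotype labels, so that any gene with a clear gap between the groups scores high, and the value is a description. Ddit4l, a regulator of mTOR signalling, had 0.751, 1.003 and 0.735 CPM against 0.176, 0.237 and 0.247 CPM. Llgl1, a cell polarity gene, had 31.4, 33.0 and 29.7 CPM against 19.6, 20.6 and 21.7 CPM. Jup, plakoglobin of cell junctions, had 474.3, 526.6 and 455.3 CPM against 296.9, 311.6 and 325.4 CPM. Their log2 fold changes were 1.90, 0.61 and 0.64.

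**Figure D5:**
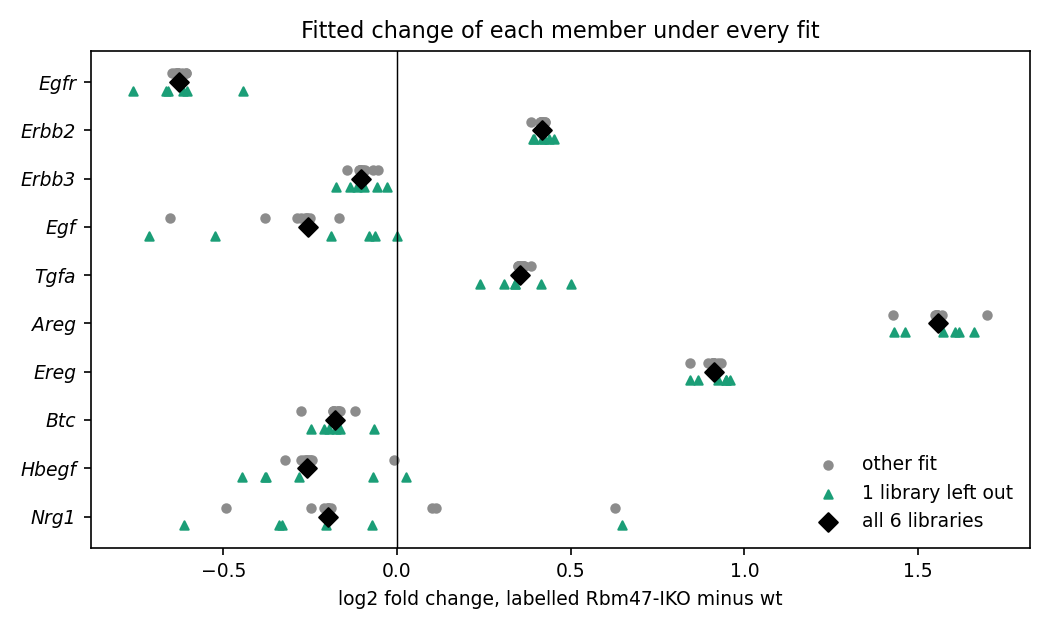
Fitted log2 fold change of each member (horizontal axis, libraries labelled IKO minus wt) with all 6 libraries (diamonds), under the other fits (circles) and with 1 library left out (triangles). Areg stays between 1.43 and 1.70 and Ereg between 0.84 and 0.96, while Nrg1 runs from −0.61 to 0.65 and Hbegf from −0.45 to 0.03.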

How the data were processed

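The authors deposited, for each of 6 pools, read counts on 38561 Ensembl genes, with gene length, CPM and RPKM columns made from those counts; the CPM and RPKM columns were not used. The submitters' processing notes name STAR 2.5.1a, Subread, featureCounts 1.4.6-p5 and GRCm38; their settings are not given in the sources used here. Libraries were grouped by the genotype labels, and no 2 were identical. Symbols came from GENCODE M21, which held 36639 of the genes; genes without a symbol held 0.369% of counts.

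Genes past filterByExpr (16425) were tested with edgeR 4.0.16 (TMM, quasi-likelihood, Benjamini-Hochberg over all genes, threshold 0.05) in R 4.3.3, which was tested on simulated data. Alternatives used DESeq2 1.42.0, limma 3.58.1, other normalizations, filters, covariates and left-out libraries. Correlation with Areg used log2 CPM with a prior count of 2. A level of 3 counts was taken as the floor, which covers counting error only; reads are not independent molecules. An exact permutation test of 3 pools against 3 cannot go below p = 0.1 and was not used.

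The members and lists were chosen with earlier results of these data known. Named genes are Rbm47, the members, called pathway genes, in each list the gene of lowest p and that of largest change, the rest of the family, neighbours of Erbb2 and of the Areg cluster, and the 3 genes most like Areg that have a symbol.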

Additional observations from a re-analysis of the deposited data

How the results depend on the processing

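Areg passed the threshold in all 10 fits that changed the method, a covariate or the set of libraries, besides leaving out single ones, and Ereg in 7 of 10. Ereg was lost with the replicate block, with the Y-linked sum as covariate, fitted because the sexes were unevenly pooled (edgeR adjusted p = 0.0858) and with only the 4 libraries of lower smooth muscle sums. The last 2 fits were chosen after the data were seen. With DESeq2, 1243 genes, 4 members and 6 pathway genes were called. With library sizes alone, Erbb2 also passed (edgeR adjusted p = 0.0419), with 5 pathway genes among 614 genes, and with a filter of 1 CPM in 3 libraries 3 pathway genes passed among 550. With the smooth muscle sum as a covariate, 711 genes and 2 pathway genes (Cbl and Phlda1) were called. With the Y-linked covariate, 59 genes, 1 member and 0 pathway genes were called by edgeR (9 pathway genes and 12.7% of all genes had an unadjusted p under 0.05). With the 4 libraries, 327 genes, 1 member and 2 pathway genes (Phlda1 and, named after its values were seen, Spry4) were called. Libraries with the same replicate number had correlations of 0.408, −0.003 and −0.277 in their deviations from the group means. The highest between genotypes, 0.479, was that of Rbm47-IKO replicate 3 with wt replicate 2, the 2 libraries rich in smooth muscle transcripts. These values cannot tell whether the pools were paired by their replicate numbers. With those numbers as a replicate block, 100 genes, 1 member (Areg) and 0 pathway genes were called by edgeR (10 pathway genes and 16.4% of all genes had an unadjusted p under 0.05), and Ereg had an adjusted p of 0.0712.

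Leaving out each library in turn gave 0 to 431 genes, 0 to 3 members and 0 to 4 pathway genes called, and 4 to 6 members with a fitted change above 0. No gene passed edgeR's adjusted threshold without Rbm47-IKO replicate 2, although 1729 of 17001 genes (10.2%) and 4 members had an unadjusted p under 0.05. Without Rbm47-IKO replicate 1 and without wt replicate 3, 32 and 11 genes passed and 0 members. In these 2 fits 4 and 5 members had an unadjusted edgeR p under 0.05, beside 11.9% and 13% of all genes. Without Rbm47-IKO replicate 3, 119 genes, Areg among the members and 0 pathway genes passed. Cbl was lost without each library labelled Rbm47-IKO and without wt replicate 3. Egfr passed only with DESeq2 and without wt replicate 1 (edgeR adjusted p = 0.0496). Nrg1 changed sign with limma-voom (0.11), with the replicate block (0.10), with the 4 libraries (0.63) and without wt replicate 2 (0.65), while the other 5 fits that left out a library stayed below 0, down to −0.61. Hbegf ran from −0.45 to 0.027 in those fits, above 0 only without wt replicate 2. The cause of these shifts was not tested. Egf could not be fitted under the 1 CPM filter, and its 16 to 34 counts, like the 24 to 157 counts of Nrg1, limit what could be seen.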
